A study of Mus musculus with 2 samples.

Results

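The regions described here are peaks of accessible chromatin that lie away from gene starts, around 15 genes of the alveolar epithelium of the fetal mouse lung. A region was taken where a peak of one library overlapped a peak of the other by at least 1 base, where its peaks lay within 100 kb of the listed transcript starts of one of the 15 genes, and where it was over 1 kb from the listed starts of every gene. This gave 199 regions, of 73846 shared distal regions and 101838 shared regions in all. Each region carries the name of its gene and a number in order of its position on mm10 (GRCm38). The genes fall into 3 groups. The transcription factors were Nkx2-1, Foxa2, Cebpa and Etv5, with 57 regions. The genes of surfactant and of the lamellar bodies that store it were Sftpc, Sftpb, Sftpa1, Abca3, Lamp3 and Slc34a2, with 55 regions. The genes of alveolar type 1 (AT1) cells were Ager, Hopx, Rtkn2, Clic5 and Aqp5, with 87 regions.

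Nuclei came from C57BL/6J wild-type fetuses on gestation day 18, and RNA and accessible chromatin were read in the same nucleus. Mothers were 6 to 8 weeks old and were sensitized intraperitoneally on days -21 and -7 with 25 µL of alum, to which 100 µg of ovalbumin (OVA) was added for the asthmatic mothers only. They then received 500 µg of OVA, or PBS, into the nose every 2 to 3 days from gestation day 4 to 17. The PBS library pooled 9 fetuses and the OVA library 8 fetuses, each from 1 dam, and by the study's methods the sorted cells that were combined were EpCAM+ epithelium, CD45+ immune cells and, as CD45+ Lin- ST2+ cells, group 2 innate lymphoid cells (ILC2s). With 1 library in each group there was no replicate check, and no p-value is given. Intervals are at the 95% level and cover counting error alone, and an OVA over PBS ratio compares these libraries, not the conditions.

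Alveolar type 2 (AT2) cells make surfactant and keep the alveoli from collapsing, whereas AT1 cells are flat and form the surface for gas exchange. Both arise from distal lung progenitors under Nkx2-1, the homeodomain factor of lung epithelium, and before birth the progenitors part into the 2 fates. Accessible regions far from gene starts often act as enhancers, and they tend to differ between cell types more than gene starts do. An enhancer need not act on the nearest gene, so a region is named here for its neighbour and not for a target.

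Of the 199 regions, 98 were intergenic, 55 intronic and 46 exonic, by any gene model. For 54 of them the nearest listed start of any gene was that of the named gene. The distance from a region's nearer edge to the named gene's starts had a median of 42.16 kb and ran from 1.084 to 99.67 kb. The farthest region, Nkx2-1 region 3, held 16 AT2 and 2 macrophage fragments in the PBS library, and the first shared distal region beyond the window, 101.8 kb from Rtkn2, held 1 and 4. The regions were unevenly spread, with 27 around Cebpa, 22 around Ager, 18 each around Hopx, Rtkn2 and Etv5, 17 around Sftpb, 15 around Clic5, 14 around Aqp5 and 13 around Abca3. There were 9 each around Foxa2 and Sftpc, 7 around Slc34a2, 5 around Sftpa1, 4 around Lamp3 and 3 around Nkx2-1. No region lay within reach of more than 1 of the genes.

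Of the sequences that bear on the findings, 2 lie inside regions of the Cebpa locus that were open in different cell types. The other 3 are the stretches just before the starts of Sftpb, Slc34a2 and Aqp5. The start regions of these 3 genes differed between AT2 and AT1 nuclei or from macrophages. All the sequences printed here are RefSeq sequences (GRCm38.p6) of the 250 bases before a gene start, on the strand of that gene. The Cebpa region 17 window (minus strand, start of the transcript gene Gm51475) is chr7:35130852-35131101 and the Cebpa region 21 window (minus strand, start of Gm35889) is chr7:35156837-35157086. The Sftpb window (plus strand) is chr6:72304360-72304609, the Slc34a2 window (plus strand) chr5:53049103-53049352 and the Aqp5 window (plus strand) chr15:99590778-99591027. Capitals mark motif matches.
Cebpa region 17: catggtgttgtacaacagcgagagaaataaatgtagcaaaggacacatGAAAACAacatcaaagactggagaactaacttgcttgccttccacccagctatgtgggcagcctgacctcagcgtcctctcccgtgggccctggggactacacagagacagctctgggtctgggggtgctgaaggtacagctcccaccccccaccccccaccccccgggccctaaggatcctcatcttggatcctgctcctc
Cebpa region 21: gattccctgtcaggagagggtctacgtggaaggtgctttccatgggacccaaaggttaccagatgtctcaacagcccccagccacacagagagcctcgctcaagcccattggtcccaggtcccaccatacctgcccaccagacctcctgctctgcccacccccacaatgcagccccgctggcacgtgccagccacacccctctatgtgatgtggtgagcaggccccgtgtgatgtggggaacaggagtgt
Sftpb: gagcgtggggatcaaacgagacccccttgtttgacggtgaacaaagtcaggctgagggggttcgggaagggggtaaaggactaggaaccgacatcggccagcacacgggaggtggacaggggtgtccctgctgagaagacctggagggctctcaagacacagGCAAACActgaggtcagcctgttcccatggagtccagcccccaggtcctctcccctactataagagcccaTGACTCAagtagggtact
Slc34a2: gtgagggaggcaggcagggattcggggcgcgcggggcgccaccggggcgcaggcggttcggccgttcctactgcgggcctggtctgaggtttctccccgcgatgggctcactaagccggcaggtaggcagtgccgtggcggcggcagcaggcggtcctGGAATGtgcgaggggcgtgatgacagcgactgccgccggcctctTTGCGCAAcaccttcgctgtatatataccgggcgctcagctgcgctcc
Aqp5: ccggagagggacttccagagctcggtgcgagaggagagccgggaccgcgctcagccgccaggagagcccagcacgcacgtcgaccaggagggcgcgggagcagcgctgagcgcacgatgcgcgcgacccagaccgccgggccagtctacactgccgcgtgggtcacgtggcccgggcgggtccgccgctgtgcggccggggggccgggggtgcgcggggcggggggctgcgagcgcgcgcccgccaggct
The motifs searched on both strands were NKX2-1 (CACTNNAG), FOXA (TGTTTNC), CEBP (TTGCNNAA), TEAD (GGAATG), those of GATA factors (AGATAA), ETS (CCGGAAG), NFI (TTGGCA), AP-1 (TGANTCA), PU.1 (GAGGAAGT), RUNX (TGTGGTT) and CTCF (CCACNAGG), where N is any base. The Cebpa region 17 window held 1 FOXA match, the Sftpb window a FOXA and an AP-1 match, and the Slc34a2 window a TEAD and a CEBP match, none of which overlapped another. The Cebpa region 21 and Aqp5 windows held none of these letters. Of all 32851 windows of this length, 17.8% held the FOXA letters, 6.75% AP-1, 12.6% TEAD and 9.56% CEBP, 12.9% NKX2-1, 9.99% GATA, 6.91% ETS, 12.3% NFI, 2.44% PU.1, 4.40% RUNX and 4.22% CTCF. A match describes the letters and does not show that a factor binds.

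Filters and doublet removal left 4279 nuclei of the PBS library and 4996 of the OVA library, and 54 barcodes occurred in both libraries. Nuclei were placed in cell types by the RNA of marker lists that hold none of the 15 genes. AT2 nuclei numbered 337 (PBS) and 229 (OVA), AT1 nuclei 221 and 299, macrophages 641 and 982, ILC2 366 and 524, and stroma 1275 and 1676. Stroma was the most numerous type, and the study's own accounts differ on whether fibroblasts were among the cells sorted from fetal lungs. The types differed in depth, since AT1 nuclei had a median of 3016 and 2413 transposition counts against 9240 and 9261 in AT2 nuclei. Mitochondrial genes took a median of 38.9% of UMIs in PBS AT2 nuclei and 26.8% in OVA AT2 nuclei. The part of this difference in any OVA over PBS value was not tested.

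The RNA of the surfactant, lamellar body and AT1 genes separated the epithelial types in both libraries, as did that of Cebpa and Etv5. Foxa2 RNA did not, and Nkx2-1 RNA differed in the OVA library alone. Sftpc, the surfactant protein C gene, stood at 20000 counts per 1000000 UMIs (CPM) in PBS AT2 nuclei and 21890 in OVA AT2 nuclei, against 1766 and 1009 in AT1 nuclei and 194 and 163 in macrophages. Ager, the receptor that marks AT1 cells, stood at 2607 and 2789 CPM in AT1 nuclei against 221 and 187 in AT2 nuclei. Nkx2-1 RNA was at 341.5 and 358.3 CPM in AT2 and 332 and 265 CPM in AT1 nuclei, with intervals that overlapped in the PBS library only. Foxa2 RNA was at 22.3 and 10.8 CPM in AT2 against 42.5 and 18.8 CPM in AT1 nuclei, with overlapping intervals. Sftpc RNA was counted in every type, at 349 and 227 CPM in ILC2 nuclei and 451 and 289 CPM in stroma, and its source there was not tested. Of 22 macrophage markers, 14 (PBS) and 13 (OVA) were detected in AT2 nuclei, summing to 554 and 817 CPM against 3395 and 3262 in macrophages, and C1qa, C1qb, C1qc and Ms4a7 were at 0 in AT2 nuclei of both libraries.

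The first question was whether these regions were more open in the alveolar epithelium than in the immune and stromal cells of the same lungs. Accessibility is given in fragments per 1000000 (FPM), the fragments in a region over all fragments of that cell type in shared regions. The 199 regions together took 2039 FPM (interval 1971 to 2110) in PBS AT2 nuclei and 2166 in OVA AT2 nuclei, and 1784 and 1804 in AT1 nuclei. Macrophages had 1053 and 1093, stroma 1036 and 1071, and ILC2s 660 and 639. Both epithelial types were therefore above all 3 other types in both libraries, and the order of the types was the same in each library, with macrophages and stroma close together. On the log2 scale AT2 nuclei exceeded macrophages by 0.95 (0.88 to 1.02) and 0.99 (0.92 to 1.06), while over all shared distal regions the same ratio was -0.20 and -0.24. The log2 ratio of AT1 nuclei to macrophages was 0.76 and 0.72 for the 199 regions and -0.35 and -0.46 for all shared distal regions.

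A region was called higher in one type where the ratio was at least 2 with an interval above equality in both libraries. Of the 199 regions, 67 (33.7%) were called higher in AT2 nuclei than in macrophages, against 13.8% of all shared distal regions. In AT2 nuclei 63 were called higher than in ILC2s, against 12.0%, and 65 higher than in stroma, against 11.9%. For AT1 over macrophages there were 46 calls, against 7.49%. Regions called higher than in macrophages, ILC2s and stroma at once numbered 48 for AT2, against 8.18%, and 37 for AT1, against 4.04%. The reverse, macrophage over AT2, was called for 29 regions (14.6%), below the 20.4% of all shared distal regions. The 199 regions also held more fragments, with a median of 110 over the 5 types against 90 for all shared distal regions, and of 14 against 5 in AT2 nuclei, so that a given ratio was more easily called in them.

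**Figure D1:**
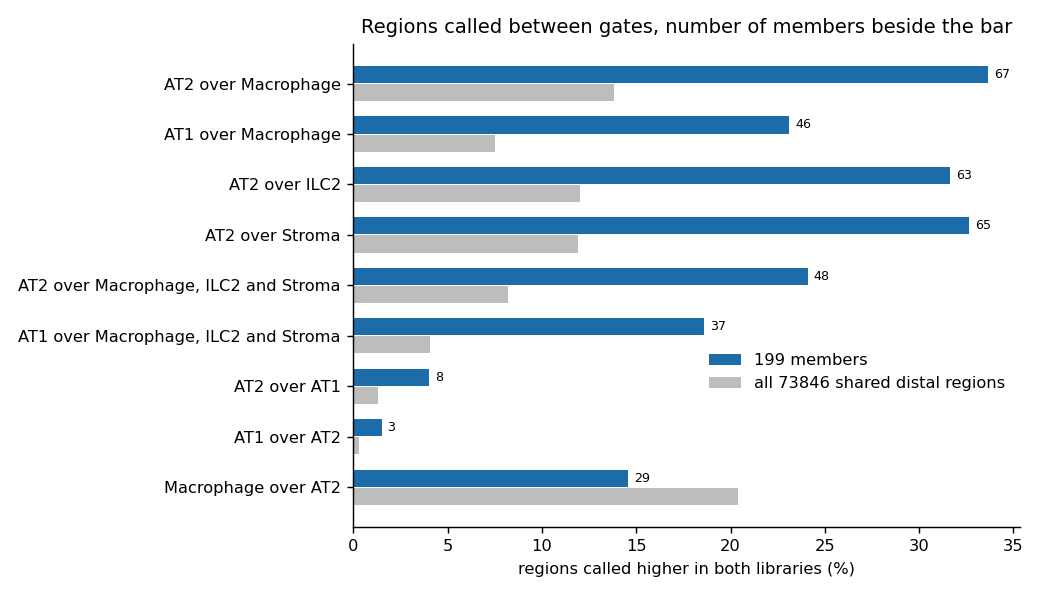
Share of regions called higher in one gated cell type than in another in both libraries (x axis, %), for the 199 members (blue, number called beside the bar) and for all 73846 shared distal regions (grey). The blue bar is longer in the 8 comparisons that ask for higher accessibility in AT2 or AT1 nuclei, and shorter for macrophage over AT2.

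The calls were found near and far from the genes. Of the 26 regions within 10 kb, 12 (46.2%) were called for AT2 over macrophage, as were 36 (42.4%) of the 85 regions between 10 and 50 kb and 19 (21.6%) of the 88 regions between 50 and 100 kb, against the 13.8% of all shared distal regions. Where the nearest start was that of the named gene, 29 of 54 regions (53.7%) were called, and where it was that of another gene, 38 of 145 (26.2%). For macrophage over AT2 the counts were 2 of 54 (3.70%) and 27 of 145 (18.6%), and the second share was near the 20.4% of all shared distal regions. Of the regions intergenic by any gene model 34 of 98 were called for AT2 over macrophage, of the intronic ones 21 of 55 and of the exonic ones 12 of 46.

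The surfactant and lamellar body genes had the widest gap to macrophages among the 3 groups. Summed over their 55 regions, AT2 nuclei stood at 681 and 754 FPM, AT1 nuclei at 447 and 393, stroma at 295 and 284, ILC2s at 179 and 167 and macrophages at 134 and 139. The log2 ratio of AT2 to macrophage was 2.35 (2.18 to 2.52) and 2.43 (2.29 to 2.58), and 22 of the 55 regions (40%) were called. For the transcription factor genes it was 1.06 and 1.04, with 21 of 57 (36.8%) called. For the AT1 genes it was 0.30 and 0.31, with 24 of 87 (27.6%) called. The share of all shared distal regions was 13.8%.

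**Figure D2:**
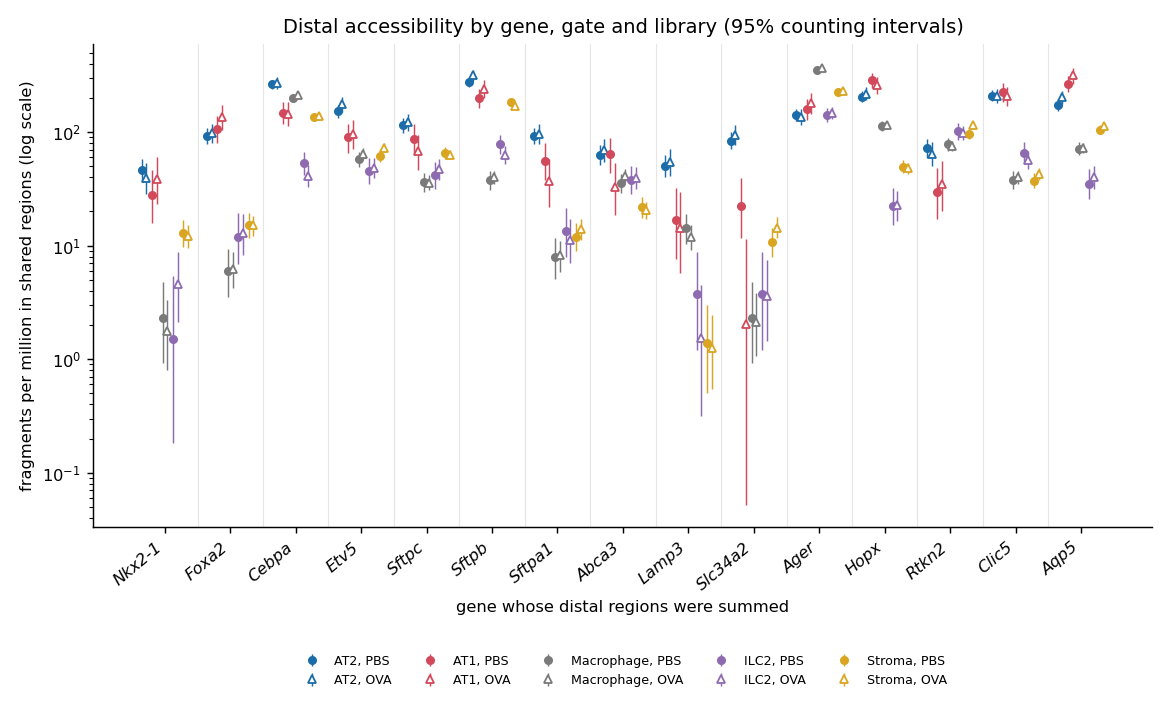
Fragments per 1000000 in shared regions (y axis, log scale) summed over the distal regions of each gene (x axis) in AT2, AT1, macrophage, ILC2 and stroma nuclei, with filled circles for the PBS and open triangles for the OVA library and bars for 95% counting intervals. The Slc34a2 regions show the widest spread between AT2 (84.1 and 94.7) and the other types, and the Ager regions are highest in macrophages (350.2 and 366).

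Slc34a2 encodes the phosphate carrier of AT2 cells, which recovers phosphate from surfactant. Its 7 regions held 137 and 98 fragments in AT2 nuclei (84.1 and 94.7 FPM), 12 and 1 in AT1 nuclei (22.4 and 2.05 FPM), and 7 and 11 in macrophages (2.31 and 2.15 FPM). The log2 ratio of AT2 to macrophage was 5.18 (4.10 to 6.53) and 5.46 (4.56 to 6.51). Of the 7 regions, 5 (71.4%) were called, against 13.8% of all shared distal regions. The most open regions lay 58.08 to 70.68 kb upstream of the gene's listed start, in the transcript gene 5033403H07Rik. No region of Slc34a2 lay closer to that start than 56.35 kb. The gene body begins farther upstream, at chr5:53038081, so these upstream regions lie closer to the body than to the listed start. Slc34a2 region 2 (chr5:52979424-52980470, intronic) had 43 and 26 AT2 fragments, 3 and 0 in AT1 nuclei, 0 and 2 in macrophages, 0 and 1 in ILC2s and 2 in stroma of each library. Slc34a2 region 3 (chr5:52990231-52991269, exonic) had 39 and 17 AT2 fragments, none in AT1 nuclei, 1 and 0 in macrophages, 1 and 0 in ILC2s and 2 and 4 in stroma. Each of these regions thus had at most 4 fragments in any other type of either library, while the 7 regions together held 47 and 92 in stroma (10.9 and 14.5 FPM). Against the 3 fragments that a count of 0 allows, region 3 was 4.27-fold (PBS) and 2.68-fold (OVA) higher in AT2 than in AT1 nuclei. These folds leave out the counting error of the AT2 fragments, so they are not lower bounds. The start region of Slc34a2 was also most open in AT2 nuclei, at 36.2 and 29.0 FPM in AT2 nuclei, 22.4 and 10.2 in AT1 nuclei and 0.33 and 0.20 in macrophages. The RNA of the gene was at 1874 and 2288 CPM in AT2 nuclei and at 138 and 36.2 CPM in AT1 nuclei.

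Lamp3, a membrane protein of lamellar bodies, had 4 regions and the second widest gap between AT2 and AT1 nuclei. They held 50.4 and 54.1 FPM in AT2, 16.8 and 14.3 in AT1, 14.2 and 11.9 in macrophage and 1.39 and 1.26 in stroma nuclei. Lamp3 region 2 (chr16:19698948-19699906), inside the gene, had 55 and 35 fragments in AT2 nuclei, 4 and 7 in AT1 nuclei and 3 and 0 in macrophages. It had none in ILC2s of either library, and 0 and 2 in stroma.

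Sftpa1 encodes surfactant protein A, and it had 5 regions, all intergenic. AT2 nuclei had 93.3 and 96.7 FPM, AT1 nuclei 56.0 and 36.8 and macrophages 7.93 and 8.21. Sftpa1 region 4 (chr14:41166964-41168013) held 52 and 35 AT2 and 7 and 3 AT1 fragments, and Sftpa1 region 5 (chr14:41169818-41171138) held 41 and 28 AT2 and 5 and 5 AT1 fragments. Region 5 had 0 fragments in macrophages and ILC2s of both libraries. The interval of its log2 ratio of AT2 to macrophage began at 4.30 (PBS) and 5.135 (OVA). Its nearest start was that of Sftpd, the gene of surfactant protein D, 14.01 kb away.

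The regions of Sftpb, the gene of the surfactant protein without which newborns cannot breathe, were open in AT2 nuclei (275 and 317 FPM), in AT1 nuclei (199.9 and 240 FPM) and in stroma (183 and 171 FPM), but low in macrophages (37.7 and 39.9 FPM). Sftpb region 11 (chr6:72293003-72294060), 10.55 kb upstream, did not share the stromal signal. It had 82 and 55 AT2 fragments, 15 and 18 AT1, 3 and 3 macrophage and 5 and 3 stroma fragments. Of the 793 and 1087 stromal fragments, 434 and 540 lay in Sftpb region 2 (chr6:72216488-72217408), in an intron of Atoh8, a transcription factor gene. The start region of Sftpb, whose sequence is given above, stood at 65.1 and 70.6 FPM in AT2 nuclei, 35.5 and 45.0 in AT1 nuclei and 0.33 and 0.78 in macrophages.

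The regions of Sftpc and Abca3 had a smaller AT2 lead over macrophages than those of Sftpb. The log2 ratio was 1.66 and 1.76 for Sftpc and 0.84 and 0.75 for Abca3, against 2.87 and 2.99 for Sftpb. The regions of Abca3 had no lead over AT1 nuclei in the PBS library. For Sftpc, 9 regions summed to 115 and 122 FPM in AT2 nuclei, 87.8 and 67.6 in AT1 nuclei and 65.4 and 63.5 in stroma. The single region next to Sftpc, Sftpc region 3 (chr14:70526461-70527477), 2.379 kb upstream, held 74 and 58 AT2, 15 and 6 AT1 and 3 and 2 macrophage fragments. Of the other 8 regions 1 was called for AT2 over macrophage, a share near the 13.8% of all shared distal regions. Abca3 moves lipid into lamellar bodies. Its 13 regions summed to 63.3 and 69.6 FPM in AT2 nuclei, 63.5 and 32.8 in AT1 nuclei and 35.4 and 41.4 in macrophages. Called for AT2 over macrophage were 2 of the 13 (15.4%), near the 13.8% of all shared distal regions. Abca3 region 7 (chr17:24365567-24366538), inside the gene, held 55 and 44 AT2 fragments, 13 and 6 in AT1 nuclei and 1 and 2 in macrophages.

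Among the transcription factor genes, Foxa2 and Nkx2-1 had regions shared by both epithelial types. Foxa2, a pioneer factor of endoderm, had 93.3 and 97.6 FPM in AT2 nuclei and 107 and 135 FPM in AT1 nuclei over 9 regions, against 5.95 and 6.25 in macrophages. Foxa2 region 2 (chr2:148004632-148005924, in an intron of 9030622O22Rik) held 34 and 22 AT2 fragments and 12 and 21 AT1 fragments, with none in macrophages of either library. Foxa2 region 4 (chr2:148017748-148018853) showed the same, with 40 and 15 AT2, 13 and 12 AT1 and no macrophage fragments. The 3 regions of Nkx2-1 had 46.1 and 39.6 FPM in AT2 and 28.0 and 38.9 in AT1 nuclei, 12.9 and 12.1 in stroma and 2.31 and 1.76 in macrophages. All 3 were called for AT2 over macrophage, against 13.8% of all shared distal regions. No region of Foxa2 or Nkx2-1 was called between AT2 and AT1 nuclei. Such calls were rare, at 1.33% (AT2 over AT1) and 0.307% (AT1 over AT2) of all shared distal regions. Their absence around these genes therefore says little about sharing.

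Cebpa encodes a factor of both AT2 cells and myeloid cells, and its 27 regions were open in both kinds of nuclei. They summed to 264 and 270 FPM in AT2 nuclei, 201 and 211 in macrophages, 148 and 145 in AT1 nuclei, 136 and 138 in stroma and 53.2 and 41.2 in ILC2s. Called for AT2 over macrophage were 6 regions (22.2%), against 13.8% of all shared distal regions. For macrophage over AT2, 8 regions were called (29.6%), against 20.4%. The rest were called in neither direction. Cebpa region 18 (chr7:35144824-35145662, 25.52 kb downstream) held 71 and 49 AT2 fragments, 9 and 12 in macrophages, 7 and 3 in AT1 nuclei, none in ILC2s and 0 and 4 in stroma. Cebpa region 17, which contains the FOXA letters printed above, held 49 and 36 AT2 and 3 and 10 macrophage fragments. Cebpa region 21, 36.89 kb downstream, was the reverse, with 57 and 91 fragments in macrophages and 3 and 0 in AT2 nuclei. It lies near the place of a known myeloid enhancer of this gene. Cebpa RNA itself was at 60.1 and 84.6 CPM in AT2 nuclei but only 6.80 and 3.48 CPM in macrophages. The start region of Cebpa stood at 78.0 and 78.3 FPM in AT2 nuclei and 90.5 and 83.2 in macrophages.

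Etv5, a factor of the fibroblast growth factor response that maintains AT2 cells, had 18 regions with 152 and 176 FPM in AT2 nuclei, 89.7 and 96.2 in AT1 nuclei and 57.8 and 64.7 in macrophages. Etv5 region 18 (chr16:22536443-22537380), in an intron of Dgkg 96.72 kb upstream, held the most epithelial fragments. It had 87 and 57 AT2 and 15 and 18 AT1 fragments, against 2 and 3 in macrophages, 2 and 0 in ILC2s and 3 and 2 in stroma. Etv5 region 12 (chr16:22441184-22441970), 1.464 kb upstream of the gene, had 26 and 19 AT2 and 3 and 3 AT1 fragments. Etv5 RNA was at 297 and 421 CPM in AT2 nuclei and 29.2 and 31.8 CPM in AT1 nuclei. The regions at its starts did not share this direction, at 120 and 85.1 FPM in AT2 nuclei and 133 and 137 in AT1 nuclei. Their log2 ratio of AT2 to AT1 was -0.14 (-0.54 to 0.27) and -0.69 (-1.16 to -0.21).

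**Figure D3:**
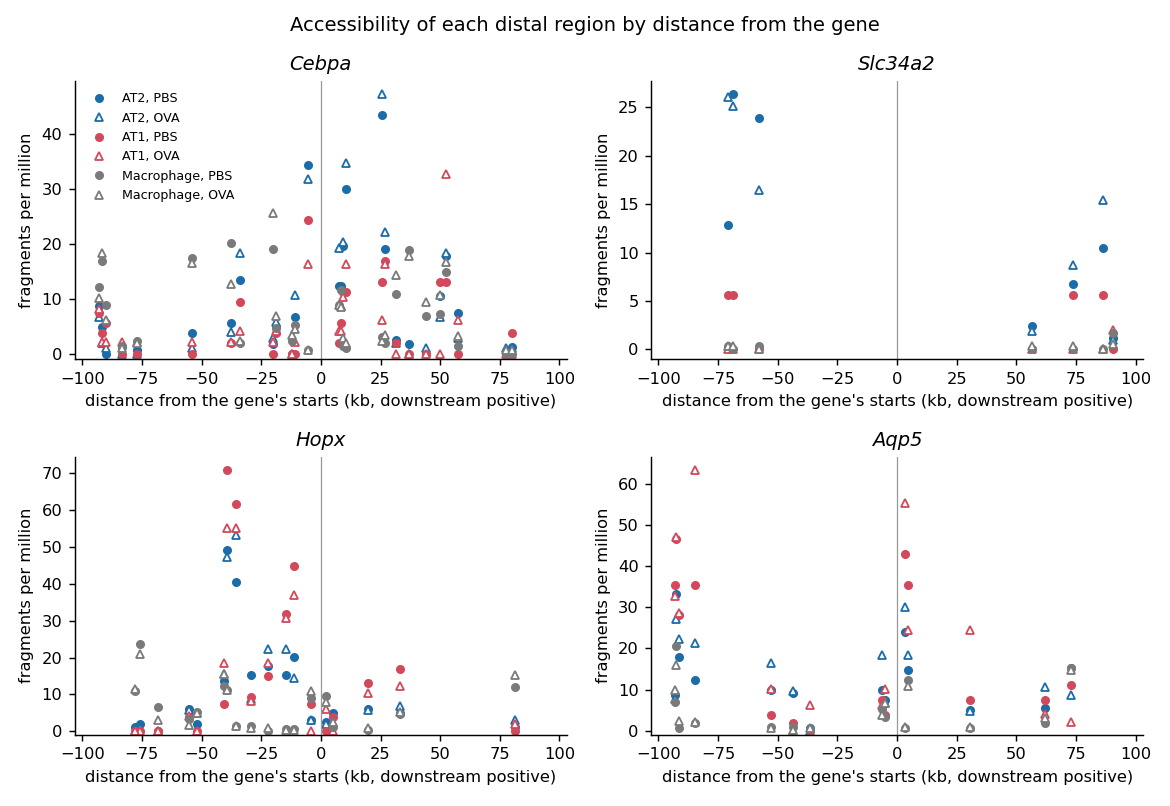
Fragments per 1000000 (y axis) of each distal region of Cebpa, Slc34a2, Hopx and Aqp5 against its distance from the gene's listed starts (x axis, kb, downstream positive) in AT2 (blue), AT1 (red) and macrophage (grey) nuclei, with filled circles for the PBS and open triangles for the OVA library. AT2 points lie highest around Slc34a2, AT1 points lie highest in several regions of Aqp5 and Hopx, and AT2 and macrophage points lead at different distances around Cebpa.

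The genes of AT1 cells had regions open in both epithelial types. For Clic5, a chloride channel family protein, 15 regions summed to 210.0 and 209 FPM in AT2 nuclei and 224 and 207 in AT1 nuclei, with no more than 66.0 in any other type. The log2 ratio of AT2 to AT1 was -0.09 (-0.40 to 0.22) and 0.01 (-0.33 to 0.37), while the RNA of the gene stood at 48.0 and 36.0 CPM in AT2 nuclei against 1258 and 1346 in AT1 nuclei. Clic5 region 11 (chr17:44238967-44239932), in an intron of the gene, held 58 and 40 AT2 and 31 and 34 AT1 fragments, or 35.6 and 38.7 against 57.9 and 69.6 FPM. Its FPM was thus higher in AT1 nuclei in both libraries, by log2 0.02 to 1.36 in the PBS interval, without reaching a ratio of 2.

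For Hopx, which encodes a small homeodomain protein without DNA binding, 18 regions summed to 206 and 218 FPM in AT2 nuclei and 286 and 258 in AT1 nuclei, with 114 and 115 in macrophages. Hopx region 12 (chr5:77154625-77155410, 39.5 kb upstream) held the most epithelial fragments, with 80 and 49 in AT2 nuclei and 38 and 27 in AT1 nuclei. Hopx region 7 (chr5:77126214-77127113, 11.09 kb upstream) was called for AT1 over AT2. It had 24 and 18 AT1 fragments and 33 and 15 AT2 fragments, or 44.8 and 36.9 against 20.3 and 14.5 FPM, and at most 3 fragments in each other type of each library. The regions at the starts of Hopx differed between libraries, with a log2 ratio of AT2 to AT1 of 0.55 (-0.33 to 1.545) and -0.90 (-1.66 to -0.12).

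Aqp5 is the water channel of AT1 cells, and its 14 regions had the clearest lean to AT1 nuclei. They summed to 267 and 315 FPM in AT1 nuclei, 173 and 202 in AT2 nuclei, 105 and 113 in stroma, 71.7 and 72.9 in macrophages and 35.3 and 40.1 in ILC2s. The log2 ratio of AT2 to AT1 was -0.63 (-0.92 to -0.33) and -0.64 (-0.95 to -0.33). Aqp5 region 1 (chr15:99497130-99497592, exonic in Faim2) held 19 and 16 AT1 fragments against 14 and 8 AT2 fragments, and Aqp5 region 4 (chr15:99505066-99506049, intronic in Faim2) held 19 and 31 against 20 and 22. These lay 93.19 and 84.73 kb upstream of Aqp5, and both were called for AT1 over AT2. Aqp5 region 10 (chr15:99594698-99595454), at the end of the gene, held 23 and 27 AT1 and 39 and 31 AT2 fragments. The start region of Aqp5 showed the same direction, at 56.0 and 49.1 FPM in AT1 nuclei and 22.7 and 17.4 in AT2 nuclei.

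The distal regions around Ager and Rtkn2 did not follow the RNA of their genes. Around Ager, which lies among many other genes, 22 regions summed to 142 and 136 FPM in AT2 nuclei and 159 and 180 in AT1 nuclei, but to 350.2 and 366 in macrophages. In 9 of the 22 (40.9%) macrophages were called over AT2 nuclei, against 20.4% of all shared distal regions. In 1 (4.5%) AT2 nuclei were called over macrophages, against 13.8%. Ager region 6 (chr17:34587076-34587948, exonic in Notch4) was about as open in every type, between 53.2 and 83.9 FPM. The start region of Ager did lean to AT1 nuclei, at 31.8 and 38.9 FPM, against 18.4 and 12.6 in AT2 nuclei and 3.63 and 1.95 in macrophages. Rtkn2, a marker gene of AT1 cells, had RNA at 988 and 1201 CPM in AT1 nuclei, yet its 18 regions stood at 29.9 and 34.8 FPM there against 71.8 and 64.8 in AT2 nuclei and 96.6 and 114 in stroma. Rtkn2 region 15 (chr10:68057608-68058535), in an exon of the gene, held 43 and 23 AT2 fragments and 3 and 2 AT1 fragments, with 72 and 117 in macrophages. The start region of Rtkn2 stood at 65.4 and 79.9 FPM in AT1 nuclei and 54.0 and 44.5 in AT2 nuclei. The interval of its log2 ratio reached 0 in the PBS library.

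The second question was how the 2 epithelial types differed from each other. Over all 199 regions the log2 ratio of AT2 to AT1 was 0.19 (0.09 to 0.30) with PBS and 0.26 (0.15 to 0.38) with OVA, close to the 0.15 and 0.22 of all shared distal regions. By group the ratio was 0.61 and 0.94 for the surfactant and lamellar body genes, 0.58 and 0.49 for the transcription factor genes and -0.27 and -0.26 for the AT1 genes, and the intervals of the first 2 groups lay above 0 and those of the third below 0 in both libraries. Single regions were called seldom. AT2 over AT1 was called for 8 of 199 regions (4.02%), against 1.33% of all shared distal regions, and AT1 over AT2 for 3 (1.51%), against 0.307%. These counts moved with the settings. AT2 over AT1 numbered 11 in the PBS library alone (2.87% of all shared distal regions) and 20 in the OVA library alone (3.23%), but 3 with the study's joint count filter on nuclei (0.676%). AT1 over AT2 numbered 9 with PBS alone (1.63%) and 7 with OVA alone (1.12%). The 8 regions called in both libraries were Slc34a2 regions 2 and 3, Sftpa1 regions 4 and 5, Cebpa regions 14 and 18, Lamp3 region 2 and Rtkn2 region 15. Of these, 7 lay around surfactant and lamellar body genes (55 of the 199 regions) or transcription factor genes (57 of the 199). All 3 in the other direction, Aqp5 regions 1 and 4 and Hopx region 7, lay around AT1 genes (87 of the 199). Of the 11 regions, only Lamp3 region 2 had the named gene's start as its nearest.

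Few AT1 fragments limited this comparison, since the median region had 4 of them over both libraries. Among the 58 regions with at least 20 AT2 and AT1 fragments in each library, 49 had the same direction in both libraries. For AT2 against macrophage, 93 of 104 such regions did. Ranked by the smaller of the ratios in the PBS and OVA libraries, Cebpa region 14 (chr7:35126797-35127524) stood first, but it rested on 1 and 2 AT1 fragments. It had 20 AT2 fragments in each library (12.3 and 19.3 FPM) and 27 and 45 in macrophages (8.92 and 8.79 FPM), and was not called for AT2 over macrophage.

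**Figure D4:**
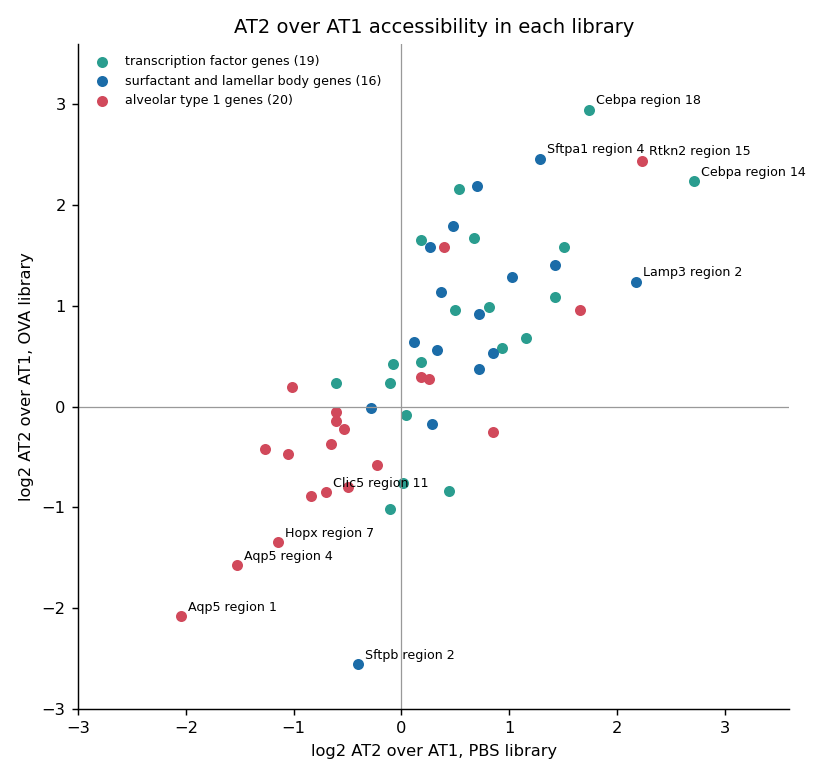
Log2 ratio of AT2 to AT1 accessibility of the PBS (x axis) and OVA (y axis) libraries for distal regions with at least 20 AT2 and AT1 fragments in each library and a finite ratio, coloured by the group of the named gene. Aqp5 regions 1 and 4 and Hopx region 7 lie below 0 in both libraries and Cebpa regions 14 and 18 and Lamp3 region 2 above 0, while Sftpb region 2 is at -0.41 (PBS) and -2.56 (OVA).

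RNA of several factors whose motifs were searched was counted in both epithelial types. Tead1, a factor of the Hippo pathway, was at 589 and 799 CPM in AT1 nuclei against 108 and 173 in AT2 nuclei, and Tead4 at 74.3 and 146 against 8.58 and 10.8. Cebpa was at 2.65 and 5.79 CPM in AT1 nuclei, below its AT2 level. Foxa1, Foxa2, Gata6, Nfib and Tead3 differed less, and Nfib was highest in stroma (1298 and 1485 CPM). Cebpb (113 and 104 CPM) and Cebpd (72.1 and 155 CPM) were present in AT2 nuclei, Runx1 was higher in macrophages (549 and 868 CPM) than in AT2 nuclei (166 and 286 CPM), and Spi1, the gene of PU.1, was at 78.2 and 75.1 CPM in macrophages, with 4 and 0 UMIs in AT2 nuclei and 1 in AT1 nuclei of each library.

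The last comparison set the OVA library beside the PBS library within a cell type. In AT2 nuclei the 199 regions summed to 3321 (PBS) and 2241 (OVA) fragments, a log2 ratio of 0.09 (0.01 to 0.16) after division by all fragments. In AT1 nuclei the ratio was 0.02 (-0.12 to 0.15), in macrophages 0.05, in ILC2s -0.05 and in stroma 0.05. A ratio of this size cannot be told apart from a difference between 2 libraries of 1 group. By gene, the intervals for AT2 nuclei reached 0 in all 15. In AT1 nuclei they left out 0 for Slc34a2, with 12 (PBS) and 1 (OVA) fragments, and for Abca3, with 34 and 16. Slc34a2 RNA in AT1 nuclei was also lower in the OVA library, at 138 and 36.2 CPM, as was Sftpc RNA at 1766 and 1009 CPM. Sftpb RNA (157 and 70.9 CPM) and Sftpa1 RNA (101 and 42.0 CPM) were lower too, with intervals that did not overlap. Lamp3 RNA, at 39.8 and 18.8 CPM in AT1 nuclei, had overlapping intervals. Abca3 RNA was at 138 and 114 CPM there, with overlapping intervals. Etv5 RNA (29.2 and 31.8 CPM) and Cebpa RNA (2.655 and 5.79 CPM) were not lower. The list of 22 AT2 markers summed to 1184 and 1044 CPM in AT1 nuclei, with 20 and 21 detected. The part of such RNA in the 2 ratios was not tested.

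Single regions in AT2 nuclei were called higher in the OVA library for 1 of 199, against 0.972% of all shared distal regions, and lower for 2, against 0.683%. In AT1 nuclei 2 were called higher, against 0.466%, and 1 lower, against 0.389%. The shares of the 199 regions (0.50% to 1.01%) thus lay near those of all distal regions. Slc34a2 region 1 (chr5:52977595-52978669) was the one higher in AT2 nuclei, with 21 PBS and 27 OVA fragments and a log2 ratio of 1.02 (0.14 to 1.91). Sftpb region 2 was lower, with 39 and 9 fragments and a ratio of -1.46 (-2.69 to -0.39), and Ager region 8 (chr17:34632072-34632987) too, with 19 and 3 fragments and a ratio of -2.01 (-4.41 to -0.24).

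Both regions of lower ratio were more open in another type than in AT2 nuclei. Ager region 8 held 196 and 306 fragments in macrophages, and Sftpb region 2 stood at 100.3 and 84.8 FPM in stroma, 18.8 and 5.15 in ILC2s and 4.30 and 0.78 in macrophages. Macrophage markers in AT2 nuclei summed to 554 and 817 CPM, and 20 and 18 of 22 stroma markers to 393 and 405 CPM. Single genes of macrophages did not all share the direction of the macrophage sum. In AT2 nuclei Mrc1 had 8 (PBS) and 2 (OVA) UMIs and Ptprc 15 and 4, with CPM intervals that overlapped between the libraries. The part of such RNA, or of fragments from these cells, in the ratios was not tested. The calls in AT1 nuclei rested on few fragments, with 0 and 5 for Etv5 region 8, 1 and 8 for Foxa2 region 3 and 7 and 0 for Cebpa region 23. The other regions of largest ratio in AT2 nuclei were not called. They were Sftpb region 12 (11 and 15 fragments) and Aqp5 region 13 (9 and 11) upward and Clic5 region 1 (27 and 8) downward.

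**Figure D5:**
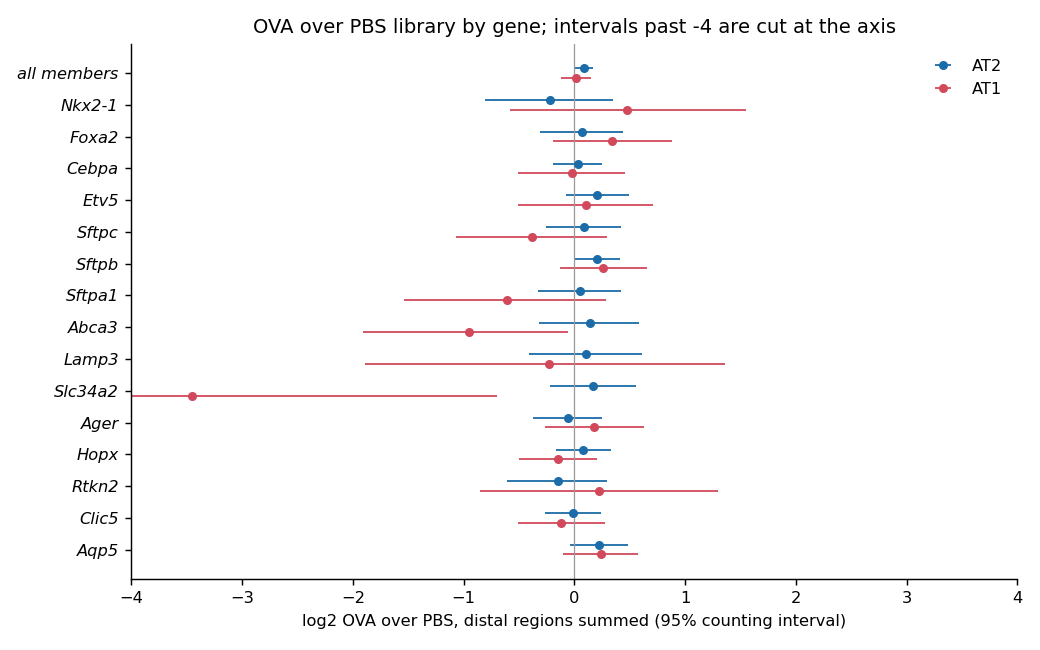
Log2 ratio of the OVA to the PBS library (x axis) of the summed distal regions of each gene and of all 199 regions (y axis) in AT2 (blue) and AT1 (red) nuclei, with 95% counting intervals. The AT2 intervals of the 15 genes all reach 0, and the AT1 intervals leave out 0 for Slc34a2 and Abca3 only.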

How the data were processed

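The authors deposited, for each library, the raw output of Cell Ranger ARC 2.0.1 on mm10: counts of unique molecular identifiers (UMIs) per gene and transposition counts per peak, with peaks called in each library separately and no normalization. The accompanying deposited feature tables give each peak's position and each gene's span of transcript starts, from which the distances were taken, so a region may lie inside a gene body. Of the non-zero peak counts, 91.3% (PBS) and 91.2% (OVA) were even, because both ends of a fragment were counted. Each count divided by 2 and rounded up was therefore taken as fragments. This unit replaced the counts first planned.

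Nuclei needed 200 or more genes and no more than 60% mitochondrial UMIs, out of 8019 PBS and 5960 OVA barcodes holding 66520943 and 51197323 transposition counts. Doublets scored against simulated ones (293 PBS and 250 OVA) were removed. A nucleus joined a type with at least 2 of its marker genes, at least 2 more than, and at least 2 times as many as, the next type. Fragments were summed per type and library and divided by all fragments in shared regions. Sums have exact Poisson intervals and ratios exact conditional binomial intervals, at 95%, for counting error only. A count of 0 allows up to 3 fragments. Only the call of AT2 over macrophage was tried on simulated data, with counting error alone and changes placed in regions rich in fragments.

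Annotation was from GENCODE M21. Named regions were those with the most epithelial fragments per gene, the 5 highest and 5 lowest AT2 to AT1 ratios and the 3 highest and 3 lowest OVA to PBS ratios in AT2 nuclei among regions with at least 20 fragments. All regions called between AT2 and AT1 nuclei or between libraries were added, and Foxa2 region 4 and Cebpa regions 17 and 21 were picked after their values were seen. The regions and lists were chosen with earlier results of these data known. RefSeq promoter windows matched 13 of the 15 genes. Motifs inside the other regions were not analysed here. Python 3.11.15, numpy 2.4.6, scipy 1.17.1, pandas 2.3.3 and scikit-learn 1.9.0 were used.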

Additional observations from a re-analysis of the deposited data

How the results depend on the processing

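Of 96 alternative values, 78 stayed close to the main ones, that is, within 1.5 times a count or inside the interval of a ratio, and 18 moved. Only the OVA to PBS ratio in AT2 nuclei could count as turned, since its interval left out 0, and it kept its sign. With nuclei in place of fragments it was 0.07 (-0.01 to 0.15). The ratio in AT1 nuclei changed sign with nuclei in place of fragments (-0.014), a 50 kb window (-0.010) and division by promoter fragments (-0.016). With at most 20% mitochondrial UMIs only 6 PBS and 33 OVA macrophages and 22 PBS and 66 OVA AT2 nuclei remained, all 5 counts of regions fell to 0, and the OVA to PBS log2 ratio in AT2 nuclei became 0.26 (-0.02 to 0.55). Regions higher in AT2 than in macrophages, ILC2s and stroma numbered 30 where gene spans were avoided by 5 kb, with 153 regions left. Regions higher in AT2 than in AT1 nuclei numbered 3 with the study's joint count filter, 5 with nuclei in place of fragments, with a 50 kb window, with the 5 kb limit and at 3-fold, 20 in the OVA library alone and 16 with transposition counts. Regions higher in AT1 than in AT2 nuclei numbered 1 with the 50 kb window and at 3-fold, 9 in the PBS library alone and 7 in the OVA library alone. Fewer regions, nuclei or libraries enter several of these by construction, and other causes were not tested. Transposition counts and division by all distal fragments were chosen after seeing the data. The latter gave OVA to PBS log2 ratios of 0.08 in both AT2 and AT1 nuclei. No paired analysis was possible because there was 1 library per group, and leaving out a replicate was not possible for the same reason. Depth in AT1 nuclei limited every comparison with them.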
